A study of Mus musculus with 4 samples.

Results

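Yap (Yap1) and Taz (Wwtr1) are related transcriptional co-activators, Tead1 and Tead4 are DNA-binding factors that carry them to their target genes, and Ankrd1, Amotl2, Axl, Lats2, Ajuba and Crim1 are genes reported as their targets. These 10 genes were chosen by name, with earlier results of these data known. Every probe set that the platform annotation gives to 1 of these symbols alone was taken. That left 23 probe sets, 9 for the 4 regulators and 14 for the 6 targets, of 45037 probe sets and 18193 named genes on the array.

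The arrays held RNA from Kupffer cells, the macrophages that reside in the liver, together with RNA from SL4, a colon carcinoma line of the mouse. Kupffer cells were sorted as CD45+ CD11b+ F4/80+ cells from 12-week-old female C57BL/6 mice, either wild type or Clec4n-/- (lacking Dectin-2, a receptor for fungal sugars, and called knockout below). SL4 cells, also of C57BL/6 origin and the same line in every group, were added at 100000 per 100000 Kupffer cells. After 8 hours, RNA was taken from cells grown together (co-culture) or from each cell type grown alone and then mixed (separate culture), giving 4 groups with 1 array each. The labels do not say how many animals gave cells to an array. The comparison asks how RNA levels differed between cells kept together and cells kept apart, in each genotype.

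In the Hippo pathway, a kinase cascade that ends in Lats1 and Lats2 phosphorylates Yap and Taz, which are then held in the cytoplasm or degraded. When the cascade is quiet, both enter the nucleus, bind Tead factors and switch on genes of growth, adhesion and the cytoskeleton. Their activity is set largely at the protein level, which arrays of RNA do not measure. Several targets feed back on the pathway: Lats2 is itself a Yap kinase, Amotl2 binds Yap and holds it outside the nucleus, and Ajuba restrains the Lats kinases.

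Tead factors bind DNA through a short motif, and its matches in the promoters of these genes are shown here because it is the route by which Yap and Taz reach their targets. The promoter table of RefSeq (build GRCm38.p6; 250 bases before and 50 bases from a gene's start) matched 8 of the 10 genes, all but Tead1 and Tead4, with 10 start sites. The Tead motif GGAATG was searched on both strands, so that CATTCC counts as a match. It was found at 9 of the 10 start sites and in all 8 genes, and in 14.7% of the 32851 promoters of the table. Yap1 and Wwtr1, which are not targets by definition, held it too. The AP-1 motif TGAGTCA, searched on both strands, was found at 0 of the 10, so none overlapped a Tead match, and in 5.20% of all promoters. Such a match is a string of letters and not a measured binding site. Each window below runs 5′ to 3′ along the gene's strand with the motif in capitals.
Yap1, chr9:8004722-8004747, minus strand: ggagtctgcaGGAATGtagcgacgcg
Wwtr1, chr3:57576031-57576056, minus strand: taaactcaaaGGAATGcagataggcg
Ankrd1, outer match, chr19:36120039-36120064, minus strand: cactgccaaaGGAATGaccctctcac
Ankrd1, inner match, chr19:36119952-36119977, minus strand: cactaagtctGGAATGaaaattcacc
Amotl2, chr9:102717729-102717754, plus strand: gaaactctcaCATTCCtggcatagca
Axl, chr7:25788951-25788976, minus strand: aaattctacaGGAATGtttaccagac
Ajuba, outer match, chr14:54577832-54577857, minus strand: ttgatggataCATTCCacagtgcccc
Ajuba, inner match, chr14:54577810-54577835, minus strand: cccctccgcgCATTCCaactgtaaac
Crim1, chr17:78200159-78200184, plus strand: ggcgggggggGGAATGaggtaggatg
Lats2, chr14:57746104-57746129, minus strand: tgacgcccgtGGAATGccaacaatgt

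The matches began 141 bases before the start of Yap1, 136 or 170 before the pair of Wwtr1 starts, 210 and 123 before that of Ankrd1, 65 before that of Amotl2 and 233 before that of Axl. They began 186 and 164 bases before the start of Ajuba and 79 before that of Crim1. In Lats2 the match lay 4 bases past 1 start, and the other Lats2 start had none. Ankrd1 and Ajuba were the only genes among the 8 with 2 matches in the window. Ccn1 (formerly Cyr61), a secreted matrix protein and another widely used Yap target, held a match 103 bases before its start. Among the further reported targets described below, the motif was found at 3 of 14 promoters, those of Ccn1, Edn1 and Ptpn14. The 250 bases before the start are given for the targets on which the results below turn, with the motif in capitals: Amotl2 had the largest mean change of the 10 genes by their brightest probe sets, Ankrd1 is a much used readout of Yap activity, and Ccn1 rose.
Amotl2, chr9:102717554-102717803, plus strand: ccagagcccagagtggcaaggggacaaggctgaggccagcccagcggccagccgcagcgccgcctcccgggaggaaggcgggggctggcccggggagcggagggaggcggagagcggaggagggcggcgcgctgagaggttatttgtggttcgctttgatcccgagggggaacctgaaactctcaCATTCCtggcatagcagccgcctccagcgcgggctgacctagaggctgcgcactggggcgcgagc
Ankrd1, chr19:36119845-36120094, minus strand: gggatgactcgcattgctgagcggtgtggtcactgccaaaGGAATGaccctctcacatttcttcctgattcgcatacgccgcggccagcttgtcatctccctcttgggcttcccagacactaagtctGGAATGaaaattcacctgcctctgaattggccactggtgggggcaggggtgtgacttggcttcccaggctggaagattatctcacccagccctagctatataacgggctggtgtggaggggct
Ccn1, chr3:145649986-145650235, minus strand: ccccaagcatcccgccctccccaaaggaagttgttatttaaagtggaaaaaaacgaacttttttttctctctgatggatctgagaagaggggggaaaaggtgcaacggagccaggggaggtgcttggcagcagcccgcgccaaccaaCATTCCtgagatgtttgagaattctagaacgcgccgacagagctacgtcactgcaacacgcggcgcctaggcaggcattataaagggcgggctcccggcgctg

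The 4 arrays had median signals of 72.5 to 78.4, and their number limits the precision of every value below. The defining markers of the labelled cell types were largely dim. Of 16 macrophage markers, 7 were under the floor in all 4 arrays, among them Adgre1 (16.8 to 35.8), the gene for F4/80, and Ptprc (13.8 to 36.4), the gene for CD45. The other 9 were measured, the brightest probe sets of Cd53 (615 to 793) and Laptm5 (350 to 502) lying above the floor in all 4 arrays. All other probe sets of Cd53 and Laptm5 lay under it in all 4. The Laptm5 one is of a type (x_at) whose probes may also match other transcripts. By their brightest probe sets, C1qb, Cd68, Csf1r, Fcer1g and Lyz2 were also above the floor in all 4. Of 8 Kupffer cell markers, 6 were under it, including Clec4f, Timd4 and Vsig4, while Id3 (1960 to 2232) and Cd5l (125 to 195) were above it in all 4. Both probe sets of Clec4n were also under it, so the deletion could not be checked. Of 11 epithelial markers, 8 were under it, including Cdh1, Krt8 and Krt18. All 6 endothelial markers and the 4 neutrophil markers on the array were under it as well. Of 12 mesenchymal markers, 4 were under it, and the others ranged up to Vim (12614 to 16128).

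All 10 genes gave a signal, and by their brightest probe sets none reached a 2-fold difference between co-culture and separate culture. A probe set was taken as measured where its signal, a relative brightness on a linear scale, passed a floor of 76.1, the median of all signals. Of the 23 probe sets, 20 lay above this floor in all 4 arrays and 1, the second of Axl, lay under it in all 4. Signals under the floor were raised to it before ratios were taken, which narrows the ratios of dim probe sets. Of the 22 that could be compared, 0 then changed 2-fold in wild type, where 1.28% of all measured probe sets did. In knockout 0 changed 2-fold, where 1.19% did. Before that step, a dim Lats2 probe set (1425420_s_at) read 118 in separate culture and 54.0 in co-culture in wild type, a difference past 2-fold. Levels of different probe sets cannot be set against each other, so each gene is compared only with itself.

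**Figure D1:**
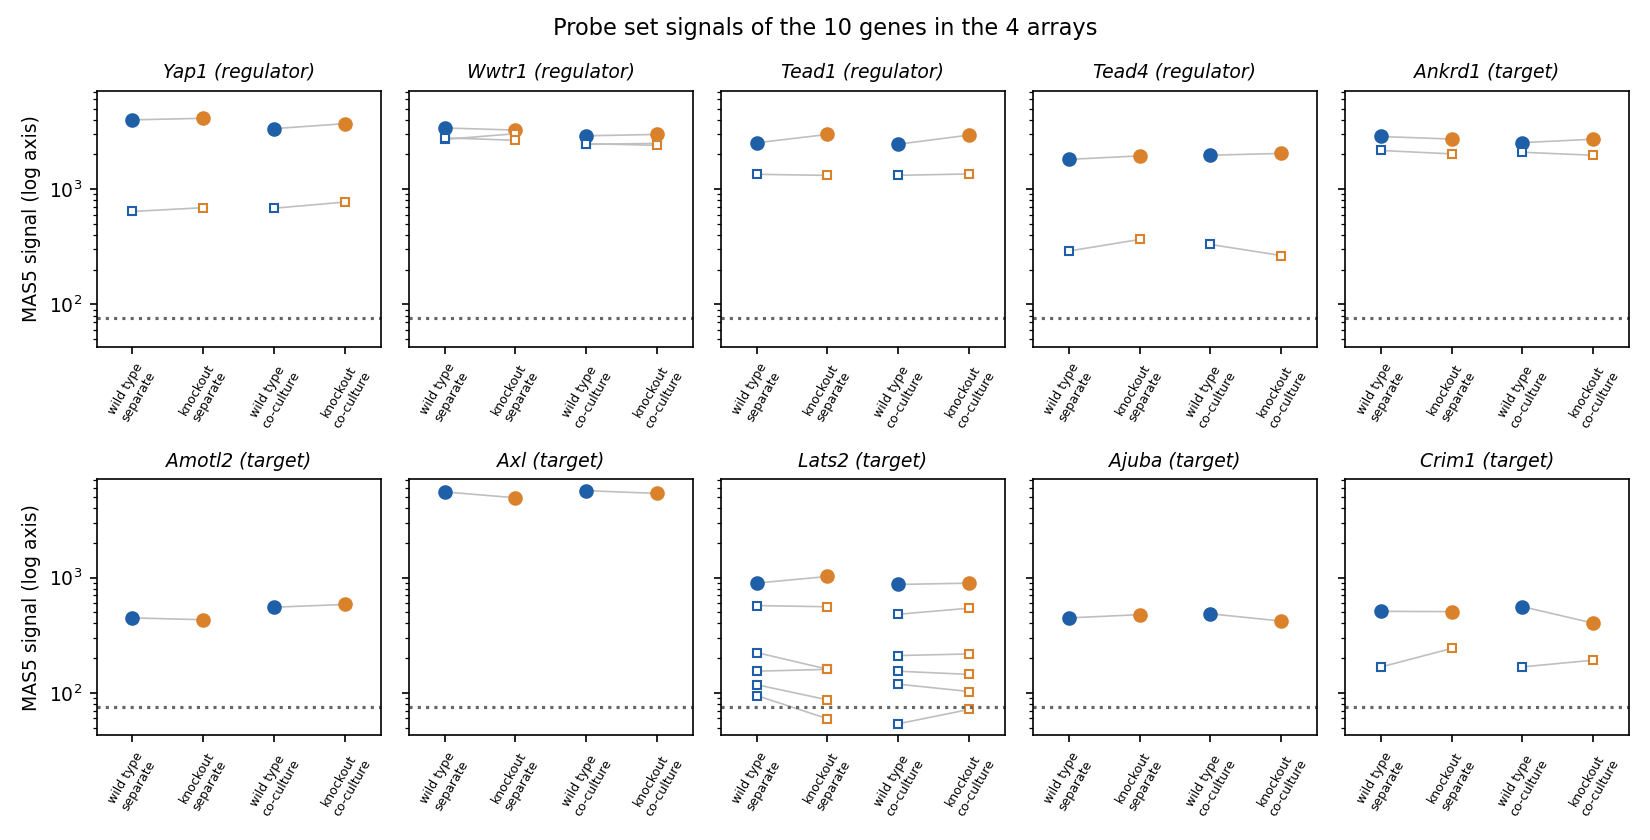
MAS5 signal (log axis) of the probe sets of each of the 10 genes in the 4 arrays, 1 point per array. Large filled points mark the brightest probe set, small open ones the others, and a probe set under the floor in every array is left out. Lines join wild type and knockout of the same culture, and the dotted line is the floor of 76.1. By the brightest probe sets, Yap1 and Wwtr1 lie slightly lower in co-culture than in separate culture in both genotypes, and Amotl2 lies higher in both.

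Co-culture and separate culture were also compared over both genotypes in an additive limma fit of culture and genotype, run on 22972 probe sets above the floor in at least 2 arrays. In this fit the genotypes stand in as replicates of the culture difference. The fit has 1 residual degree of freedom, which is the difference between the changes of the 2 genotypes. To this limma adds 26.8 prior degrees of freedom, taken from the variance of other probe sets of like signal. Its standard errors, intervals and p-values rest mostly on that borrowed variance. They measure only the spread between these arrays, and no spread between replicates of a group. The culture effect passed an adjusted p of 0.05 (Benjamini-Hochberg) in 7.05% of all probe sets tested and in 0 of the 22 probe sets of these genes. At an unadjusted p under 0.05 it was 5 of the 22, beside 4582 of all 22972. Of these 5, 4 belonged to regulators and 1 to a target. The effect lay below 0 in 15 and above 0 in 7 (31.8%), against 51.1% above 0 among all probe sets tested. Their median log2 effect was -0.08, beside 0.0048 over all. The median size of the effect was 0.13 on the log2 scale in both sets. In this fit the 95% interval of the effect lay within 2-fold either way in all 22.

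The co-activators were slightly dimmer in co-culture, by amounts that missed the threshold. Every array mixes RNA of both cell types, and fewer cells of a type and less RNA per cell cannot be told apart. The brighter Yap1 probe set (1448363_at) had signals of 3987 (wild type) and 4114 (knockout) in separate culture and 3348 and 3695 in co-culture. Both co-culture arrays lay below both separate arrays. The log2 ratio was -0.25 in wild type and -0.15 in knockout, and the fitted effect was -0.20 ± 0.07 (SE; 95% interval -0.35 to -0.06; limma adjusted p = 0.0877). The dimmer Yap1 probe set (1416487_a_at) read 639.8 and 690.0 in separate culture and 683 and 772 in co-culture, wild type first here and below. It went the other way, with log2 ratios of 0.09 and 0.16 and a limma adjusted p of 0.597, so the probe sets of Yap1 disagree in sign. With quantile normalization the brighter one passed the threshold (limma adjusted p = 0.0481).

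Wwtr1 was measured by 3 probe sets, and in each of them both co-culture arrays lay below both separate arrays. The brightest (1417818_at) had signals of 3392 (wild type) and 3249 (knockout) in separate culture and 2900.4 and 2980.0 in co-culture. Its log2 ratios were -0.23 in wild type and -0.12 in knockout, with a fitted effect of -0.18 ± 0.07 (SE; 95% interval -0.32 to -0.03; limma adjusted p = 0.153). A second probe set (1437155_a_at) had 2699 and 3024 in separate culture and 2441 and 2492 in co-culture, and the last (1417817_a_at) had 2784 and 2651 in separate culture and 2481 and 2397 in co-culture. Their fitted effects were -0.21 (limma adjusted p = 0.0755) and -0.16 (limma adjusted p = 0.215). The 3 probe sets belong to 1 gene and were read on the same 4 arrays, so they repeat the measurement and not the experiment. With the floor set at 2 times its value, the second probe set passed the threshold (limma adjusted p = 0.0435).

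Some cell type markers differed with culture in the same fit. Of the 7 mesenchymal markers tested, 3 fell, where 5.15% of all genes tested fell: Acta2 (log2 -0.66), Col3a1 (-0.52) and Col5a2 (-0.81). The median effect over the 7 was that of Col3a1. Of the 2 stellate cell markers tested, Des fell (-0.82; limma adjusted p = 2.94e-08). Of the 9 macrophage markers tested, 1 rose, where 3.2% of all genes tested rose: C1qb, a subunit of complement C1q (0.96; limma adjusted p = 0.0095). The median effect over the 9 was 0.02. The brightest C1qb probe set (1437726_x_at) was 2.63-fold higher in the wild-type pair and 1.44-fold in the knockout pair. A dimmer one (1434366_x_at) did not pass (0.42; limma adjusted p = 0.330). Both are of a type (x_at) whose probes may also match other transcripts. The last C1qb probe set (1417063_at) and those of C1qa and C1qc lay under the floor in all 4 arrays. All 5 calls were lost without the variance trend (limma adjusted p 0.140 to 0.238) and without a filter on low signals (0.662 to 1), and quantile normalization kept those of Col3a1 and Des. The summed signal of the 12 mesenchymal markers was 33586 and 29855 in separate culture and 30356 and 28897 in co-culture. That of the 16 macrophage markers was 1866 and 2197 in separate culture and 2216 and 2178 in co-culture. The part of these cell types in the values of Yap1, Wwtr1 and the other genes described here was not tested.

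Neither Tead factor passed the culture test. Tead1, which is needed for heart development, had signals of 2520.2 (wild type) and 2981 (knockout) in separate culture and 2455 and 2942 in co-culture in its brighter probe set (1423434_at). The knockout arrays were above the wild-type arrays in both culture conditions, by 0.24 and 0.26 on the log2 scale, while the culture effect was -0.03 (limma adjusted p = 0.880). The genotype effect of 0.25 had an unadjusted p of 0.00142 and a limma adjusted p of 0.128. The other Tead1 probe set (1429556_at) read 1344 and 1315 in separate culture and 1317 and 1354 in co-culture, with no order by genotype or culture.

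Tead4, which is needed for the first cells of the placenta, had signals of 1809.5 (wild type) and 1942 (knockout) in separate culture and 1967 and 2041 in co-culture in its brighter probe set (1426337_a_at). The log2 ratios of 0.12 and 0.07 gave a fitted effect of 0.10 (limma adjusted p = 0.524). The dimmer one (1460683_at) read 289.9 and 365 in separate culture and 331 and 265 in co-culture. Here co-culture was above separate culture in wild type (log2 0.19) and below it in knockout (log2 -0.46), and the difference of these changes, -0.65, was the largest in size among the 22 probe sets. With 1 array a group that difference has no test.

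**Figure D2:**
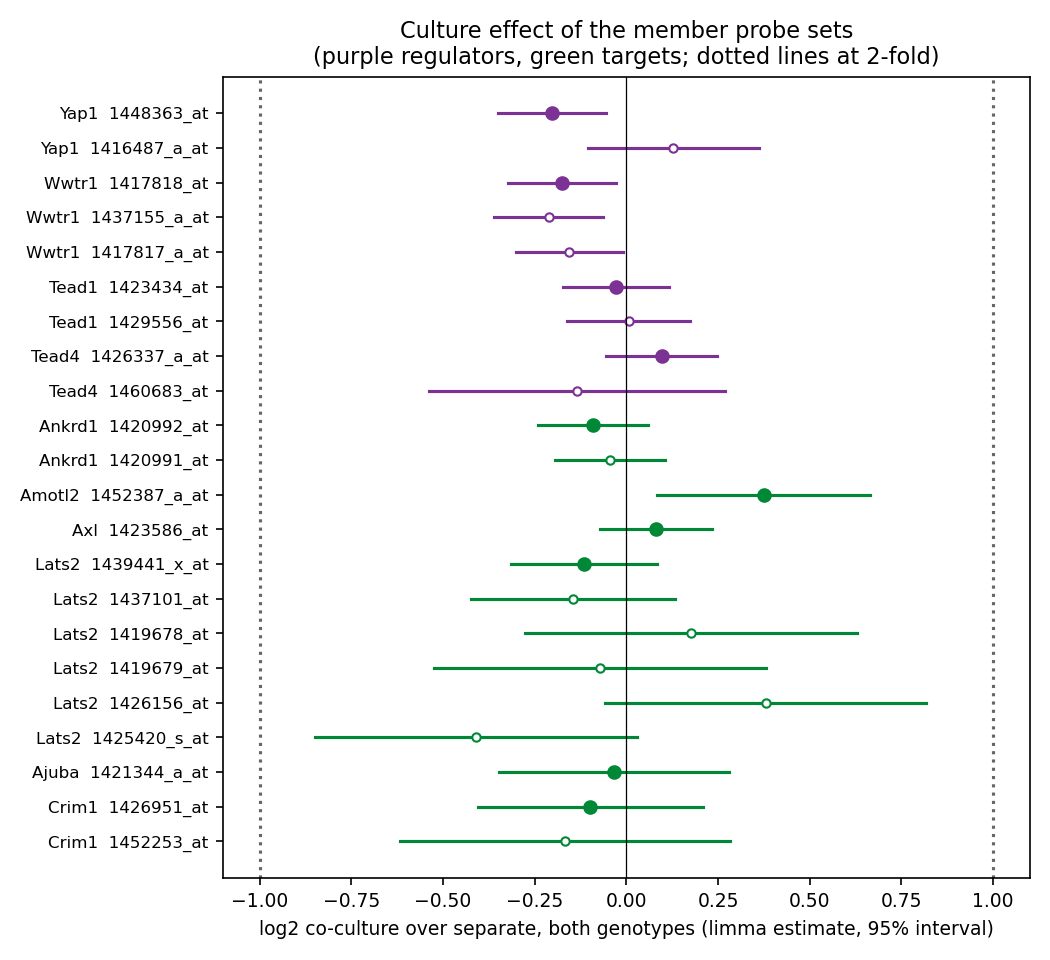
Culture effect (log2, co-culture over separate culture, both genotypes) from the additive limma fit for the 22 probe sets tested, with 95% intervals, regulators and targets in separate colours. The intervals of the brighter Yap1 probe set, of all 3 Wwtr1 probe sets and of Amotl2 leave out 0, and every interval lies within 2-fold.

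Among the targets, Amotl2 had the largest mean change of the 10 genes when each was read by its brightest probe set. Among all 22 probe sets, 2 dim ones of Lats2, described below, had larger fitted effects. Its 1 probe set (1452387_a_at) gave signals of 447 (wild type) and 431 (knockout) in separate culture and 554 and 585 in co-culture. Both co-culture arrays were above both separate arrays, 1.24-fold in the wild-type pair and 1.36-fold in the knockout pair. The fitted effect was 0.37 ± 0.14 on the log2 scale (SE; 95% interval 0.08 to 0.67), with a limma adjusted p of 0.117 that ranged from 0.0786 to 0.687 under the alternative settings. Amotl2 is an angiomotin that ties Yap to cell junctions, and it is itself induced by Yap. Of 10636 genes, the 5 whose pattern over the 4 arrays lay nearest to that of Amotl2 were Slc22a23, Gstk1, Pdk4, Maff and Cpd, at Euclidean distances of 0.0357 to 0.0517 in gene-centred log2 signal.

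Ankrd1, a cardiac and muscle ankyrin repeat protein, did not pass the test. The brighter probe set (1420992_at) had signals of 2860.4 (wild type) and 2716 (knockout) in separate culture and 2530.1 and 2708 in co-culture. Its log2 ratios were -0.18 in wild type and -0.0045 in knockout, and the fitted effect was -0.09 (95% interval -0.24 to 0.06; limma adjusted p = 0.547). The dimmer one (1420991_at) read 2163 and 2021 in separate culture and 2088 and 1966 in co-culture, with a limma adjusted p of 0.799. The highest co-culture signal of the brighter probe set lay just under its lowest separate one, and the groups of the dimmer one overlapped.

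Axl is a receptor tyrosine kinase of the Tyro3, Axl and Mertk family, which binds Gas6 and Pros1 on dying cells. Its bright probe set (1423586_at) had signals of 5535 (wild type) and 4926 (knockout) in separate culture and 5679 and 5374 in co-culture. Both co-culture arrays were above their own separate array, by log2 0.04 in wild type and 0.13 in knockout, and the groups overlapped (limma adjusted p = 0.609). With the arrays scaled to 1 median the wild-type ratio became -0.08, so its sign depends on the scaling. The second Axl probe set (1438621_x_at) read between 0.64 and 7.38, under the floor in every array, and was not tested.

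Lats2 was covered by 6 probe sets, of which the signs disagreed. The brightest (1439441_x_at) had 896 (wild type) and 1023 (knockout) in separate culture and 872 and 895 in co-culture, a fitted log2 effect of -0.12 and a limma adjusted p of 0.570. The next (1437101_at) had 572 and 559 in separate culture and 481 and 543 in co-culture, which were lower in co-culture in both genotypes. Another (1419678_at) read 224 and 161 in separate culture and 211 and 218 in co-culture, a log2 ratio of -0.09 in wild type and 0.44 in knockout. The remaining 3 were dim: 1419679_at read 145 to 159.9 in the 4 arrays, 1426156_at read 59.7 to 119, and 1425420_s_at read 54.0 to 118. The fitted effects of the last 2 were 0.38 and -0.41, in opposite directions near the floor, with limma adjusted p of 0.338 and 0.290, after values under the floor were raised to it. A further probe set (1421055_at), annotated to both Xpo4 and Lats2, was left out.

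Ajuba, a LIM-domain protein of cell junctions, gave signals of 447 (wild type) and 477 (knockout) in separate culture and 486 and 419 in co-culture. Co-culture was above separate culture in wild type (log2 0.12) and below it in knockout (log2 -0.19), with a culture effect of -0.03 (limma adjusted p = 0.939). Crim1, a membrane protein that binds bone morphogenetic proteins, did the same in its brighter probe set (1426951_at), with 509.7 and 507 in separate culture and 559.9 and 402 in co-culture. Its log2 ratios were 0.14 in wild type and -0.33 in knockout. The dimmer Crim1 probe set (1452253_at) read 167 and 243 in separate culture and 168 and 192 in co-culture, with ratios of 0.01 and -0.34. Both Crim1 probe sets were therefore near level in wild type or slightly up, and down by about the same amount in knockout, a difference that 1 array a group cannot test.

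**Figure D3:**
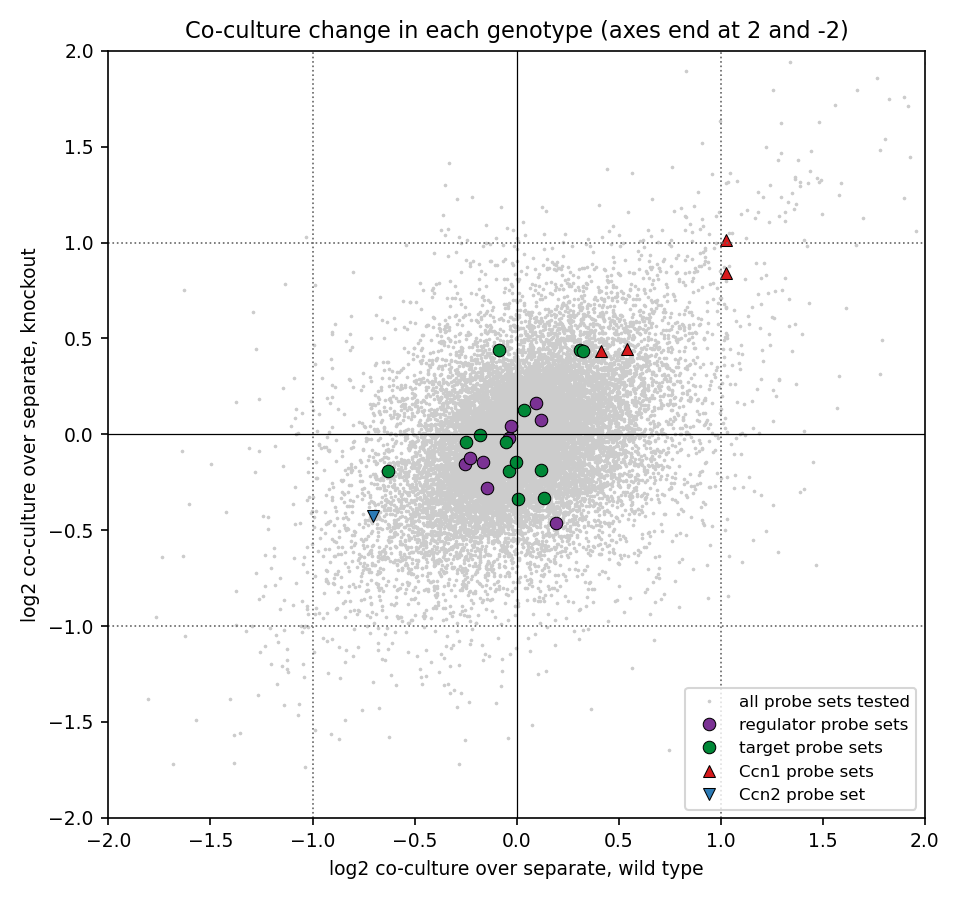
Log2 ratio of co-culture over separate culture in wild type (horizontal axis) and in knockout (vertical axis), for the member probe sets over all tested probe sets. The axes end at 2 and leave out 26 probe sets. The members lie near the centre, and Amotl2 stands highest toward the upper right among the brightest ones.

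Set against each other, regulators and targets did not separate in the same way in both genotypes. By the brightest probe set of each gene, the median log2 ratio was -0.13 for the 4 regulators and 0.08 for the 6 targets in wild type, a gap of 0.21. In knockout the medians were -0.07 and -0.10, a gap of -0.02. Over all genes measured the median was -0.02 in both genotypes. Over all their tested probe sets the median culture effect was -0.14 for regulators and -0.07 for targets, and 11 of the 22 were lower in both genotypes, 5 were higher in both and 6 went opposite ways. The differences between the genotypes' changes ran from -0.65 to 0.53, with a median size of 0.13 beside 0.17 for all probe sets.

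The effect of knockout over wild type, over both cultures, ranged from -0.26 to 0.36 on the log2 scale. It passed the limma threshold in 0 of 22 probe sets and in 0.544% of all probe sets tested. At an unadjusted p under 0.05 it was 1 of the 22 (Tead1), beside 2238 of all 22972.

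The other genes of the pathway were taken from lists and read through their brightest probe set, with 8.35% of all 10287 genes tested passing the culture test, 3.2% higher and 5.15% lower. Of 16 genes of the kinase core, 13 were on the array and tested, and 1 fell. Taok3, a kinase that activates the Mst kinases at the top of the cascade, had signals of 1129.6 and 1154 in separate culture and 935 and 931 in co-culture. Its log2 effect was -0.29 ± 0.09 (SE; limma adjusted p = 0.0482). Only 1 of the 4 Taok3 probe sets passed. The other 12 genes did not pass, among them Map4k4 (0.23; limma adjusted p = 0.0565), Mob1a (0.02; 0.903) and Wwc1 (0.10; 0.537). Of the dimmer probe sets of these genes, 1448050_s_at of Map4k4 (0.33; limma adjusted p = 0.00318) and 1430564_at of Mob1b (0.49; limma adjusted p = 0.0227) passed.

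Of 14 other proteins that restrain Yap and Taz or act on the Lats kinases, 13 were on the array, 12 were tested and 3 fell. Amot, the founding angiomotin, had signals of 1925 and 1912 in separate culture and 1245 and 1224 in co-culture. Both co-culture arrays were far below both separate ones, a log2 effect of -0.64 ± 0.08 (SE; limma adjusted p = 1.33e-06). Amot and Amotl2, which are paralogues, thus had effects of opposite sign, with only that of Amot passing the test, and the difference between them was not tested. Ptpn14, a phosphatase that binds Yap and is also among its targets, had signals of 720.1 and 818 in separate culture and 485 and 531 in co-culture. Its log2 effect was -0.60 ± 0.12 (SE; limma adjusted p = 0.00167). Fat1, an atypical cadherin upstream of the pathway, had signals of 1948 and 1950.4 in separate culture and 1636 and 1616 in co-culture, a log2 effect of -0.26 ± 0.08 (SE; limma adjusted p = 0.0302). Only 1 of 3 probe sets passed for Amot and for Ptpn14. Dimmer probe sets that passed in the other direction included 1456727_a_at of Csnk1d (0.34; limma adjusted p = 0.0241) and 1417176_at of Csnk1e (0.33; limma adjusted p = 0.0379). The brightest probe sets of Csnk1d and Csnk1e did not pass.

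Among 5 other Tead factors and Tead-binding cofactors, all on the array, only 2 were bright enough to be tested. Tead2 had an effect of 0.06 (limma adjusted p = 0.683) and Vgll3, a Tead-binding cofactor, one of 0.54 (limma adjusted p = 0.132), from signals of 47.4 and 70.7 in separate culture and 105 and 117 in co-culture. Both separate signals of Vgll3 lay under the floor and were raised to it before the fit. Tead3 read between 30.6 and 84.1 and was not tested. None of these genes passed, and 1 of the 2 had an unadjusted p under 0.05, beside 2218 of all 10287 genes tested.

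Among 23 further genes reported as Yap targets, 21 were on the array and 16 tested, of which 2 rose and 1, Ptpn14, fell. Ccn1 had signals of 4158 and 3768 in separate culture and 5534 and 5099 in co-culture. The probe set is of a type (x_at) whose probes may also match other transcripts. Its log2 effect was 0.42 ± 0.07 (SE; limma adjusted p = 2.10e-04), and all 4 of its probe sets passed, with effects of 0.42 to 1.02. In the probe set 1457823_at its signals were 808 and 768 in separate culture and 1644 and 1549.9 in co-culture, 2.03-fold and 2.02-fold higher in co-culture. Arhgef17 had signals of 692 and 655 in separate culture and 1027 and 887 in co-culture, a log2 effect of 0.50 ± 0.10 (SE; limma adjusted p = 0.00203). Only 1 of its 5 probe sets passed, and their signs disagreed, with -0.24 in 1419939_at and -0.32 in 1419938_s_at. A dimmer probe set of Asap1 (1435059_at) fell and passed (-0.62; limma adjusted p = 0.0205), while its brightest did not pass (-0.23; 0.151). The median effect over the 16 genes was -0.10. Ccn2 (formerly Ctgf), the textbook partner of Ccn1 as a Yap target, falls outside the rule for named genes and was chosen after its values were seen. Its signals were 365 and 281 in separate culture and 224 and 209 in co-culture, log2 ratios of -0.70 and -0.43, and the fitted effect of -0.57 missed the threshold (limma adjusted p = 0.0927). Ccn1 and Ccn2 had effects of opposite sign, and the difference between them was not tested.

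**Figure D4:**
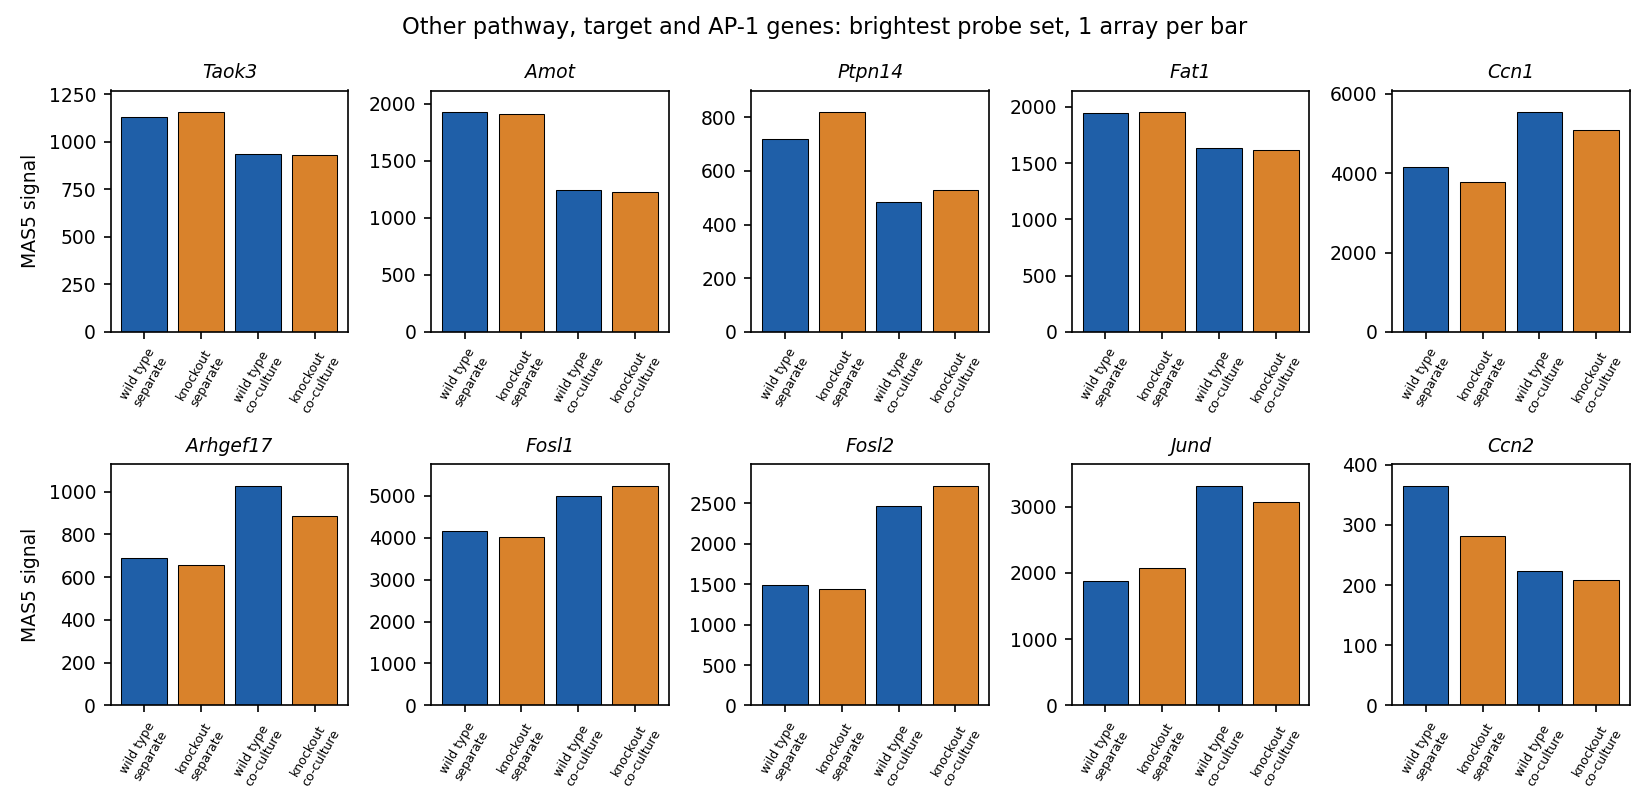
MAS5 signal (linear axis from 0) of the brightest probe set of 10 other genes in the 4 arrays, 1 bar per array, wild type in blue and knockout in orange. Taok3, Amot, Ptpn14, Fat1 and Ccn2 are lower in both co-culture arrays than in both separate arrays, and Ccn1, Arhgef17, Fosl1, Fosl2 and Jund are higher.

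AP-1 factors share many enhancers with Tead factors. Of 8 genes of this family, all tested, 3 rose and 0 fell, with a median log2 effect of 0.24. Fosl2 had signals of 1494 and 1441 in separate culture and 2467 and 2717 in co-culture, an effect of 0.82 ± 0.08 (SE; limma adjusted p = 9.37e-09). Jund had signals of 1883 and 2069 in separate culture and 3310.4 and 3072 in co-culture, an effect of 0.69 ± 0.08 (SE; limma adjusted p = 1.76e-07). Fosl1 had signals of 4158 and 4028 in separate culture and 4987 and 5234 in co-culture, an effect of 0.32 ± 0.07 (SE; limma adjusted p = 0.00504). In each of these 3 genes both co-culture arrays lay above both separate arrays. Another Fosl1 probe set (1417487_at) had an effect of 0.17 and did not pass, and another of Jund (1440265_at) was under the floor in all 4 arrays. The rest of the family did not pass by their brightest probe sets. Fos (0.35) and Junb (0.15) lay above 0, and Fosb (-0.49), Jun (-0.06) and Atf3 (-0.12) below it. The ligands Gas6 (0.03; limma adjusted p = 0.961) and Pros1 (0.12; 0.721) of the Axl receptor family did not pass the test. Nor did the receptors related to Axl, Tyro3 (0.22; limma adjusted p = 0.630) and Mertk (-0.27; 0.522). Of these 4 genes, 0 had an unadjusted p under 0.05.

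The 9 genes called in these lists depend on the settings of the fit. All 9 calls were lost when limma was run without the trend of variance on signal (adjusted p 0.136 to 0.329) and when no filter was set (0.662 to 0.682). With quantile normalization 7 of 9 were kept, Taok3 (0.142) and Fat1 (0.0928) being lost. Map4k4, whose brightest probe set missed the threshold, passed it there under 4 alternatives (limma adjusted p 0.0329 to 0.0418).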

How the data were processed

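Each group is 1 array of RNA, grouped by the labels. The deposited table gives linear intensities, 1 per probe set, made by the authors with Affymetrix Expression Console 1.4 and MAS5, per the submitters' processing notes; MAS5 subtracts background and scales each array, so a change in total RNA cannot be seen. Platform annotation gave 1 symbol to 34945 of 45037 probe sets, several to 932 and none to 9160.

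Signals were raised to the floor of 76.1 and log2-transformed, with no further scaling. Ratios within a genotype compare 1 array with 1 and have no test, since the smallest exact p is 0.5. Over both genotypes, limma 3.58.1 (R 4.3.3; lmFit, eBayes with trend) fitted culture plus genotype to 22972 probe sets, with Benjamini-Hochberg adjustment over all of them and a threshold of 0.05. Lists use each gene's brightest probe set. Promoter matches and figures used Python 3.11.15 and matplotlib 3.10.9. Code was tested on simulated data.

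All probe sets of the 10 genes are named. Of the other pathway lists, genes past 2-fold or called by their brightest probe set are named, and up to 3 of the brightest otherwise, plus the 5 patterns nearest to the gene with the largest mean change. The genes and lists were chosen with earlier results of these data known. Alternatives were another floor, a pseudocount, quantile or median scaling, other filters, no trend, and the median over probe sets.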

Additional observations from a re-analysis of the deposited data

Results flagged for a closer look

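Ajuba and Crim1 changed in opposite directions with co-culture in the 2 genotypes. For Ajuba, the log2 ratio of co-culture over separate culture was 0.12 in wild type and -0.19 in knockout, a difference of -0.31. For Crim1, in its brighter probe set, it was 0.14 in wild type and -0.33 in knockout, a difference of -0.47. These differences were not tested, since each group has 1 array.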

How the results depend on the processing

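The counts past a threshold, and the gaps between the medians of targets and regulators, were compared with their main values under the alternatives. Of these values 55 stayed close and 31, all counts and given here, did not. A count was held to within 1.5 times of its main value, and a gap to within the SD of its values in the 2 genotypes. At 2-fold, 73 genes were higher and 56 lower in wild type, and 70 higher and 60 lower in knockout. Without a floor the wild-type counts were 155 and 103, the knockout counts 128 and 111; with the floor at 2 times its value, 46 and 29 in wild type and 31 lower in knockout; with a pseudocount, 21 lower in wild type and 41 and 17 in knockout. Arrays scaled to 1 median gave 59 higher and 93 lower in wild type and shifted its median log2 ratio by -0.11. The median over a gene's probe sets gave 30 lower in wild type and 35 in knockout.

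The culture effect was called in 703 probe sets higher and 916 lower, in 421 and 460 with quantile normalization, in 14 and 0 without the trend, and in 0 and 0 with no filter; unadjusted p under 0.05 held in 4582, 4353, 3706 and 3058 probe sets. The genotype effect was called in 64 higher and 61 lower, in 121 and 116 with a pseudocount, 7 and 4 with quantile normalization, 108 and 92 with only probe sets above the floor in all 4 arrays, and 0 and 0 without the trend (1596 at an unadjusted p under 0.05) or without a filter (1709). Of the 22 probe sets of the 10 genes, 0 were called, 1 was with the floor at 2 times its value (Wwtr1, limma adjusted p 0.0435) and 1 with quantile normalization (Yap1, limma adjusted p 0.0481).

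Quantile normalization reversed the culture effect of Mob1a (-0.0042) and Gas6 (-0.022) and the genotype effect of Tead1 in 1429556_at (-0.0067) and Tead4 in 1460683_at (-0.00034). The floor at 2 times its value reversed the genotype effect of Lats2 in 1419679_at (0.017). The sign of some ratios within a genotype also turned. With the median over probe sets, the knockout log2 ratio of Yap1 became 0.0037, of Tead1 0.012 and of Tead4 -0.20, and the wild-type ratio of Mob1a -0.04. With arrays scaled to 1 median, the wild-type ratios of Axl (-0.08), Mob1a (-0.06) and Tead2 (-0.04) turned. The additive fit pairs the cultures within each genotype. No paired analysis was possible by replicate number because the labels carry none, and leaving out an array leaves no residual degree of freedom.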
